A study of Mus musculus with 5 samples.

Results

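The 8 genes described here, *Chil1*, *Chil3*, *Chil4*, *Retnla*, *Arg1*, *Mrc1*, *Mgl2* and *Clec10a*, are the genes by which alternatively activated macrophages are usually recognized in the mouse. They were chosen by name, as the rows of the feature list that carry these symbols, and are 8 of the 28692 mouse genes counted. Droplet scRNA-seq gave 5 libraries of lung cells from *Ms4a3-CreER;R26-tdT* mice. There was 1 library from PBS-treated lungs (sham), and 1 library each from lungs collected 3, 7, 14 and 28 days after bleomycin, which injures the lung when instilled into the trachea. All 5 groups carry the same 2 alleles: a tamoxifen-dependent Cre driven by *Ms4a3*, a gene of granulocyte and monocyte progenitors, and a Cre-dependent tdT reporter. The study describes the mice as adults from 7 weeks of age, of both sexes, on a mixed C57BL6/129 background. How many mice entered each library is not given in the sources used here. With 1 library per time point, no difference between time points was tested, and intervals on levels and shares are 95% intervals of counting error only.

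Alternative activation is the response of macrophages to IL-4 and IL-13. Both cytokines signal through IL-4Rα and JAK kinases to the transcription factor STAT6, which induces secreted lectins, arginase and endocytic lectin receptors. In the lung these cytokines come largely from group 2 innate lymphoid cells (ILC2s), helper T cells and basophils. Several of the genes are also made outside macrophages: *Retnla* by airway epithelium, *Chil1* by epithelium and neutrophils, *Arg1* by ILC2s, and *Mgl2* and *Clec10a* by dendritic cells. The genes therefore need to be followed by cell type as well as by time.

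*Chil3* with *Chil4*, and *Mgl2* with *Clec10a*, are close copies on the chromosome, which bears on how their reads can be told apart. *Chil3* (ENSMUSG00000040809, 3:106147554-106167564, minus strand) and *Chil4* (ENSMUSG00000063779, 3:106201490-106219507, minus strand) lie 33925 bases apart, and their transcripts were identical at 94.72% of 1535 aligned bases. Of 511 stretches of 90 bases at the 3′ end of the *Chil3* transcript, where a 3′ library takes its reads, 47 also occurred in *Chil4*, so that a small part of the reads of this pair can be shared. *Mgl2* (ENSMUSG00000040950, 11:70130329-70137550, plus strand) and *Clec10a* (ENSMUSG00000000318, 11:70156197-70170834, plus strand) lie 18646 bases apart, were identical at 91.11% of 1001 aligned bases and shared 0 of 511 such stretches. *Retnla* (ENSMUSG00000061100, 16:48842551-48844461, plus strand) shared 0 of 510 stretches with *Retnlb* or with *Retnlg*. The remaining members are *Chil1* (ENSMUSG00000064246, 1:134182176-134190181, plus strand), *Arg1* (ENSMUSG00000019987, 10:24915221-24927484, minus strand) and *Mrc1* (ENSMUSG00000026712, 2:14229392-14332057, plus strand). Gene positions are those of GRCm38, the assembly called mm10 in the submitters' processing notes.

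The promoters of *Chil3* and *Chil4* are shown because the pair has very different RNA levels, and that of *Retnla* because its RNA came from unrelated cell types. Each runs from 250 bases before to 50 bases after the annotated start, 5′ to 3′ on the gene's strand, from RefSeq on GRCm38.p6. RefSeq promoters were found for 6 of the 8 genes (not for *Arg1* and *Clec10a*). In *Chil3* (chr3:106167515-106167814) and *Chil4* (chr3:106219430-106219729) capitals mark bases that the other promoter does not match:
Chil3: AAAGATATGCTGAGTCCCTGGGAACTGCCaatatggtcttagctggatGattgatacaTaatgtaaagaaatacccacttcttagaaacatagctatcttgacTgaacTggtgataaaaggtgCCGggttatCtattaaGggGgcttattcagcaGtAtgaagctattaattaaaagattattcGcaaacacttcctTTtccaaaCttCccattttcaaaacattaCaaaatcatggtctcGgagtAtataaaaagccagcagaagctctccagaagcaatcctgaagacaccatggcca
Chil4: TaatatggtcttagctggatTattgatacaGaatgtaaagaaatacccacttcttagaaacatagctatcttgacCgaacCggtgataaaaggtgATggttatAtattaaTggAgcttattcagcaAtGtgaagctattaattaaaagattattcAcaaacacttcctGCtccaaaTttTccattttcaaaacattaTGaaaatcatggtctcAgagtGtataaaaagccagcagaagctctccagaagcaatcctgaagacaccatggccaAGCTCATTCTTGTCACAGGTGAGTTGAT
In *Retnla* (chr16:48842359-48842658) capitals mark a TTCNNNNGAA match, the spaced palindrome that STAT6 prefers, and a TATAAA match:
Retnla: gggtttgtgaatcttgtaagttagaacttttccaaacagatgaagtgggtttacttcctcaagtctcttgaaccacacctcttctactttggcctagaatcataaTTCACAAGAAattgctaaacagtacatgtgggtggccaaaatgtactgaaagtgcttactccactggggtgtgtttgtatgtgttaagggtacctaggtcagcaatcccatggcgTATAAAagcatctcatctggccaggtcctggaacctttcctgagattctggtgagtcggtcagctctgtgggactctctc
The *Chil3* and *Chil4* windows matched at 251 of 271 aligned bases (92.62%). Both held the shorter palindrome TTCNNNGAA, beginning at position -172 in *Chil3* and -200 in *Chil4*, and TATAAA, at -3 and -31, counted from the annotated start. These positions depend on the annotated start used. For *Chil3* the RefSeq start is also the gene start given above, 3:106167564. For *Chil4* it lies downstream of the gene start given above, 3:106219507, and the offset between the pair follows from this. The runs of capitals at the start of the *Chil3* window and the end of the *Chil4* window lie largely outside the overlap of the windows. In *Retnla*, TTCNNNNGAA began at -145 and TATAAA at -30. Of 32851 mouse promoters of this length, 6.953% held TTCNNNNGAA, 8.298% TTCNNNGAA and 13.62% TATAAA on either strand. These are matches of letters, and binding was not measured.

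After filtering on genes (300 to 8000), on UMIs (800 to 60000) and on mitochondrial share (below 15%), 44772 of 52800 barcodes were left, between 7757 and 10280 per library. The libraries held 89769386 to 167506186 UMIs each. No barcode of the day 7 library has fewer than 4624 UMIs, and their number is exactly 10000, whereas barcodes of the other 4 libraries begin at 500 to 502 UMIs. Libraries shared 22 to 41 barcodes in pairs. Cells were assigned to a class from marker genes that include none of the 8 members, with cutoffs set after the scores had been seen. They comprised 11888 alveolar macrophages (AMs), 6788 interstitial macrophages (IMs) and 1715 classical monocytes, and 4835 cells passed no gate. There were only 70 IMs in the sham library, against 445, 2191, 1869 and 2213 at days 3, 7, 14 and 28, and no more than 33 ILC2s in any library. Of the genes kept aside to check the gates, *Marco* was highest in AMs, *Apoe* and *Adgre1* in IMs, *Clec4e* and *Mmp8* in neutrophils, *Bank1* in B cells, *Nkg7* in NK cells and *Sftpc* in epithelial cells. *Fabp4*, *Cx3cr1* and *Fn1*, kept aside for AMs, IMs and monocytes, were instead highest in endothelial cells, nonclassical monocytes and fibroblasts. The labels call the samples immune cells, but 844 epithelial cells, 333 endothelial cells and 344 fibroblasts passed the gates. Expression is stated in CPM (the usual scaling of UMIs to a fixed total), for which all cells of a class within a library were added up. Since droplets also take up free RNA, the level in lymphoid cells (T, NK and B cells), which should express none of the 8 genes, is given as background.

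**Figure D1:**
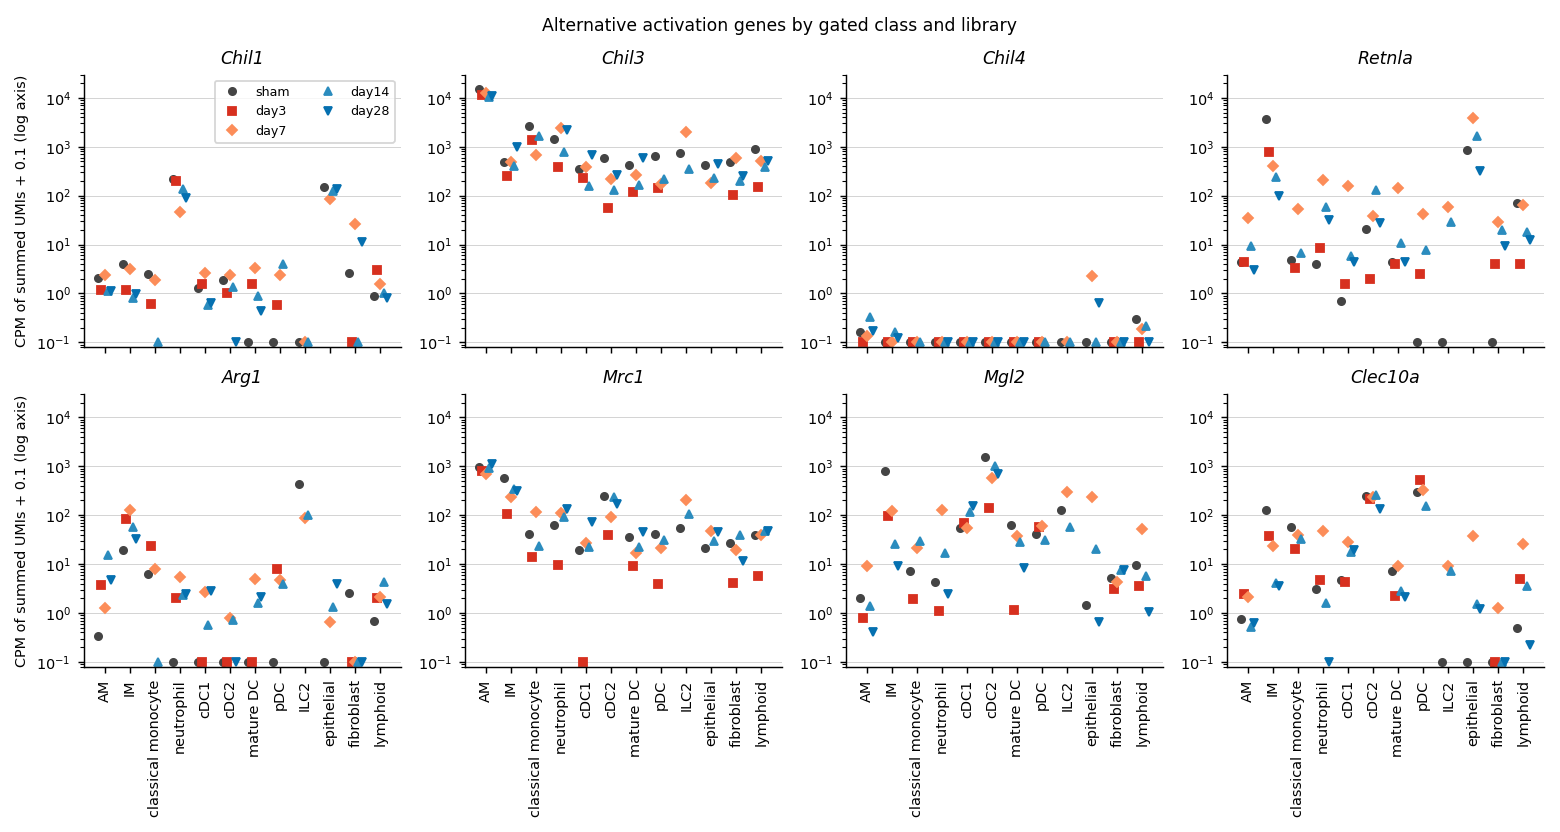
CPM of summed UMIs (plus 0.1, log axis) of each of the 8 genes in 12 cell classes, 1 point per library with at least 20 cells of the class; colors and shapes mark the sham, day 3, day 7, day 14 and day 28 libraries. *Chil3* is at 10629 CPM or more in AMs in every library, *Mrc1* is also highest in AMs, and the remaining genes peak in other classes: neutrophils and epithelium for *Chil1*, IMs and epithelium for *Retnla*, ILC2s and IMs for *Arg1*, cDC2s for *Mgl2*, pDCs and cDC2s for *Clec10a*.

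The members did not mark a single cell type. Each of the 3 chitinase-like proteins, the resistin-like protein, the enzyme and the 3 lectin receptors had its own distribution over cells, and for most genes the class that held most of the UMIs changed between libraries. Summed over all kept cells, *Chil3* was by far the most abundant at 12861 CPM in the sham library and 1935, 3502, 3730.1 and 5517 CPM at days 3, 7, 14 and 28, followed by *Mrc1* at 813 CPM in the sham library and 122, 273, 486 and 626 CPM at days 3, 7, 14 and 28. *Chil3* and *Mrc1* were lowest in the day 3 library, which also has the fewest AMs. *Retnla*, *Arg1* and *Mgl2* were highest in the library of day 7. *Arg1* was lowest in the sham library, at 1.61 CPM, and *Chil1* lowest at day 28, at 3.68 CPM. These totals also follow the makeup of each library, and the rest of the text is by class.

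**Figure D2:**
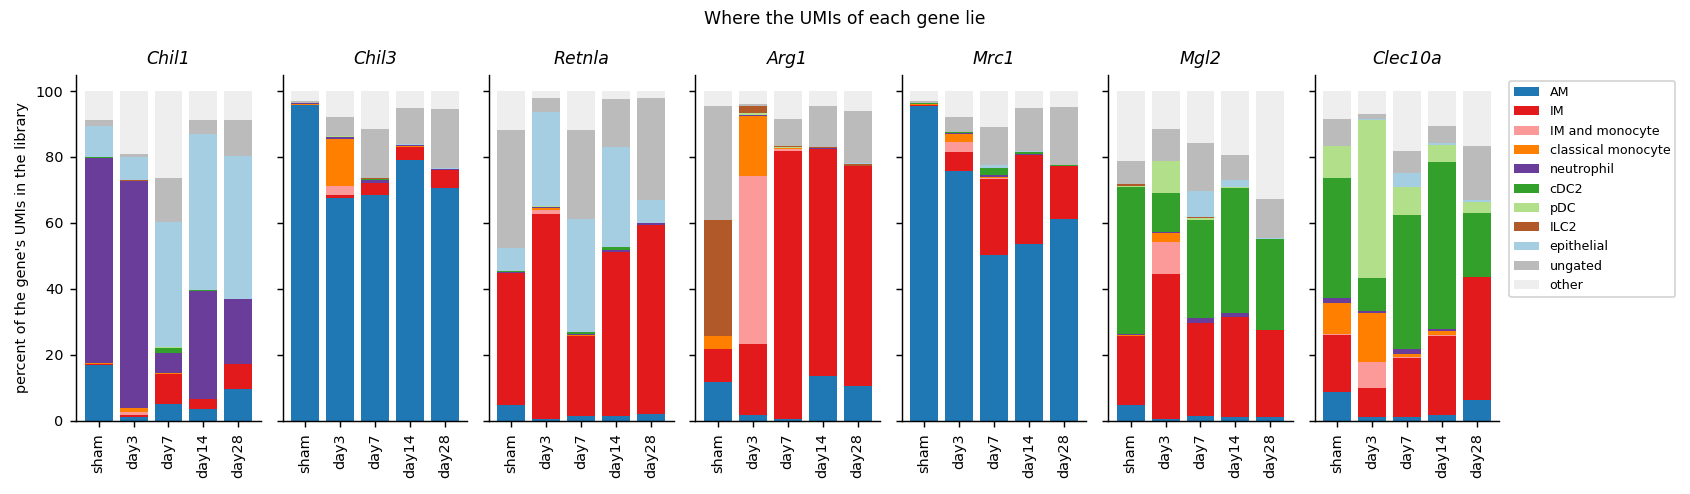
Percent of the UMIs of each gene that lie in each class of cells (stacked bars), for the 5 libraries; cells that passed no gate are dark gray and all remaining classes are light gray. *Chil3* and *Mrc1* lie mostly in AMs, *Arg1* moves from ILC2s and ungated cells (sham) to cells that pass the IM and the monocyte gate (day 3) and then to IMs, and *Retnla* is divided between IMs, epithelial cells and ungated cells.

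*Chil3* encodes Ym1, a secreted chitinase-like lectin without enzyme activity. In AMs it stood at 15216 CPM in the sham library and 11420.0, 12336, 10629 and 11133 CPM at days 3, 7, 14 and 28. AMs of the 4 bleomycin libraries were thus all below those of the sham library. When AMs were thinned to 2000 UMIs each, at least 99.49% had a *Chil3* UMI in every library. AMs held 95.8% in the sham library and 67.5%, 68.5%, 79% and 70.5% at days 3, 7, 14 and 28 of all *Chil3* UMIs. Lymphoid cells, with 919 CPM in the sham library and 149, 522, 389.8 and 521 CPM at days 3, 7, 14 and 28, had a *Chil3* UMI in 17.3% to 82.2% of thinned cells, so that the free RNA of this gene is large and differs between libraries. The level of IMs, 491 CPM in the sham library and 247, 478, 405 and 989.6 CPM at days 3, 7, 14 and 28, lay in the same range, and the difference from lymphoid cells was 0.24 ± 0.31 (SE, adjusted p = 0.519) on the log2 scale, which did not pass in the edgeR quasi-likelihood test. IMs with at least 10 *Chil3* UMIs made up 20% (sham), 4.49%, 9.54%, 13% and 27.8% (day 28) of IMs. In lymphoid cells the shares were 2.83%, 0.954%, 3.64%, 0.619% and 0.389%. These shares are not corrected for the depth of cells, and the part of free RNA in the *Chil3* of IMs was not tested. Classical monocytes had more *Chil3* than IMs, at 2595 CPM in the sham library and 1375, 677 and 1638 CPM at days 3, 7 and 14. At day 3, when 1411 classical monocytes were present, they held 14.3% of the *Chil3* UMIs. Neutrophils ranged from 394 CPM at day 3 to 2399 CPM at day 7, and were above lymphoid cells of the same library at each time. In the sham library 50% of their *Chil3* UMIs lay in 278 of 1119 cells. In the later libraries 50% lay in 11 of 776 (day 3), 9 of 140 (day 7), 60 of 799 (day 14) and 7 of 489 (day 28). Neutrophils with at least 3 UMIs of the granule genes *Camp* and *Ngp*, which mark immature neutrophils, had 2853 CPM in the sham library and 1529.6, 3881, 2982 and 2226 CPM at days 3, 7, 14 and 28, and the remaining neutrophils 1436 CPM in the sham library and 342, 2087, 626 and 2170.4 CPM at days 3, 7, 14 and 28. There were only 7 to 36 such cells in a library, and the split was chosen after the data had been seen.

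*Chil4* encodes Ym2, the close copy of Ym1, which is known from allergic airways. Next to *Chil3* it was almost silent, with 8, 0, 24, 13 and 14 UMIs over all cells of the sham, day 3, day 7, day 14 and day 28 libraries. In AMs of day 3, 0 UMIs allow a level of up to 0.299 CPM (3 counts). Epithelial cells of day 7 held 50% of the *Chil4* UMIs of that library and reached 2.17 CPM (95% interval 1.12 to 3.78). All of these UMIs lay in epithelial cells with at least 1% of their UMIs from *Scgb1a1*, the secretoglobin of airway club cells, at 6.39 CPM in 89 cells. In AMs *Chil4* was at most 0.224 CPM, in cells with 10629 CPM of *Chil3*, and the part of reads shared with *Chil3* in this was not tested. *Chil4* had too few counts to be tested between classes.

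*Chil1* encodes another chitinase-like protein, also called BRP-39 and the mouse counterpart of human YKL-40. It was not a macrophage gene in these libraries. Neutrophils had 218 CPM in the sham library and 200.5, 46.7, 134 and 88.6 CPM at days 3, 7, 14 and 28, and epithelial cells had 148 CPM in the sham library and 193, 85.9, 124 and 136 CPM at days 3, 7, 14 and 28, from 36, 17, 338, 249 and 204 cells. In AMs the level was 1.03 to 2.23 CPM and in lymphoid cells 0.702 to 2.95 CPM. The class that held most *Chil1* was not the same in every library: neutrophils held 62.2% in the sham library and 68.8%, 6.18%, 32.7% and 19.7% at days 3, 7, 14 and 28, and epithelial cells 9.57% in the sham library and 7.02%, 37.7%, 47.4% and 43.4% at days 3, 7, 14 and 28. The library of day 7, with no barcode under 4624 UMIs, had only 140 neutrophils, with a median of 10600.0 UMIs against 2170.0 to 3373 in the other libraries, and 51 by Leiden cluster. Its neutrophils are thus not the same kind of sample as the others, and the part of this in their share and level was not tested. Within them the level was 179 CPM in 36 cells with *Camp* and *Ngp* and 18.8 CPM in the other 104. In each library neutrophils with these granule genes were above those without, the sham values being 514 and 209.9 CPM. Among the genes whose levels over 79 class and library sums were most like *Chil1* were *Ltf* (Pearson r = 0.90) and *Lcn2* (0.84), given as a description since the sums share libraries. *Ltf* and *Lcn2* encode the neutrophil granule proteins lactoferrin and lipocalin-2.

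*Retnla* encodes RELMα, also called FIZZ1, a secreted resistin-like protein that IL-4 and IL-13 induce. In IMs it was lower in every later library, from 3721 CPM (95% interval 3603 to 3841) in the sham library to 792, 404, 237 and 98.3 CPM at days 3, 7, 14 and 28. AMs had almost none, with 4.32 CPM in the sham library and 4.28, 35.1, 9.14 and 2.97 CPM at days 3, 7, 14 and 28, and were below lymphoid cells in 4 of 5 libraries (69.5 CPM in the sham library and 3.87, 64.5, 17.6 and 12.2 CPM at days 3, 7, 14 and 28). The lymphoid value of the sham library rests on a single B cell, which held 332 of its 351 UMIs. Epithelial cells were the other source, with 868 CPM in the sham library and 6339.7, 3909, 1696 and 319.7 CPM at days 3, 7, 14 and 28. IMs held 40.2% in the sham library and 62.2%, 24.2%, 49.7% and 57.5% at days 3, 7, 14 and 28 of all *Retnla* UMIs and epithelial cells 6.95% in the sham library and 28.6%, 34%, 30.2% and 6.98% at days 3, 7, 14 and 28.

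*Retnla* UMIs lay in a few cells of each source. Within IMs, 50% of the UMIs lay in 3 of 70 cells (sham), 2 of 445 (day 3), 11 of 2191 (day 7), 5 of 1869 (day 14) and 3 of 2213 (day 28). The single highest IM held between 7.11% (day 7) and 40.6% (day 3) of them. IMs with at least 10 *Retnla* UMIs numbered 14, 17, 81, 29 and 15 in the 5 libraries. The share of thinned IMs with any *Retnla* UMI was 22.7% in the sham library and 5.81%, 11.7%, 3.44% and 1.4% at days 3, 7, 14 and 28, against 0.626% in the sham library and 1.05%, 10.5%, 3.93% and 2.58% at days 3, 7, 14 and 28 in lymphoid cells. The share in IMs was thus above that in lymphoid cells in the sham and day 3 libraries, had an overlapping interval at day 7 and was no higher at days 14 and 28. The CPM of IMs was higher in all 5 libraries, and stands on 81, 29 and 15 high cells in the last 3. Compared with IMs without a *Retnla* UMI, the 156 high IMs had 184 against 4.98 CPM of *Lyve1*, 121 against 2.95 CPM of *Cd163* and 728 against 64 CPM of *Ccl8*. *Lyve1* and *Cd163* are receptors of perivascular tissue macrophages, and *Ccl8* a chemokine that IL-4 can induce. They also had more *Scgb1a1*, at 14966 against 355 CPM. Without the cells that took at least 1% of their UMIs from *Scgb1a1*, *Retnla* in IMs was 391 CPM at day 7 and 236 CPM at day 14, close to the values above. Scrublet called 8.97% of the high IMs doublets and 9.22% of IMs without *Retnla*. Doublets are here the cells with the highest Scrublet scores, in a number set beforehand for each library.

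In epithelial cells *Retnla* lay almost entirely in *Scgb1a1* cells. These had 958 CPM in the sham library and 9469, 11448, 5215 and 1170.2 CPM at days 3, 7, 14 and 28 and held at least 96.9% of epithelial *Retnla* in every library, in 30, 9, 89, 84 and 49 cells. The remaining epithelial cells had 14 CPM in the sham library and 37, 42.3, 22.6 and 13.4 CPM at days 3, 7, 14 and 28. Among the *Scgb1a1* cells the value was highest at day 7. In the sham library *Scgb1a1* itself took a median of 602990.0 CPM of an epithelial cell, against 1181 to 17215 CPM later, and the median gene of epithelial cells was 1.19, 1.44 and 1.57 above sham on the log2 scale at days 7, 14 and 28, so that sham and later epithelial values are not on equal terms. Cells that passed no gate held 35.9% of *Retnla* UMIs in the sham library and 27.2% at day 7, and at day 7 *Scgb1a1* cells made up 84.5% of that. The genes most like *Retnla* over the 79 sums were *Cbr2* (r = 0.79), *Sftpb* (0.66) and *Wfdc2* (0.66), all highest in epithelial cells. *Retnlg*, its neighbor in sequence, had another pattern and was a neutrophil gene, at 3969 to 6914 CPM.

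*Arg1* encodes arginase 1, which turns arginine into ornithine and so competes with nitric oxide synthase for it. ILC2s had 429.6 CPM in the sham library and 427, 86.7, 101 and 135 CPM at days 3, 7, 14 and 28, but from only 32, 15, 20, 33 and 19 cells. They were above IMs in every library except that of day 7. IMs had 19.7 CPM in the sham library and 84.8, 125, 57.1 and 32.4 CPM at days 3, 7, 14 and 28, so that they were lowest in the sham library, highest at day 7 and still above sham at day 28. AMs had 0.235 CPM in the sham library and 3.69, 1.17, 15.4 and 4.57 CPM at days 3, 7, 14 and 28 and lymphoid cells 0.594 CPM in the sham library and 1.93, 2, 4.11 and 1.4 CPM at days 3, 7, 14 and 28. AMs were above lymphoid cells at days 3, 14 and 28, and only the day 14 level exceeded 10 CPM. At day 3 the gene was also present at 87.3 CPM in 859 cells that passed both the IM and the classical monocyte gate, and at 23 CPM in classical monocytes. The cells of both gates held 51.1% of the *Arg1* UMIs of that library, IMs 21.5% and classical monocytes 18.2%. In the sham library ILC2s held 35.1%, and at days 7, 14 and 28 IMs held 81.3%, 68.9% and 66.8%.

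*Arg1* of IMs was spread over more cells than *Retnla* from day 7 on. At day 7, 50% of its UMIs in IMs lay in 48 cells and 130 IMs had at least 10 UMIs. The numbers of such IMs in the sham, day 3, day 14 and day 28 libraries were 0, 8, 90 and 48. The 276 *Arg1*-high IMs had more *Saa3*, an acute phase protein gene, than IMs without *Arg1* (494 against 52.1 CPM), and hardly any *Lyve1* (1.94 against 12.9 CPM) or *Cd163* (0 against 9.03 CPM). Their next leading genes were *Jchain*, *Igha* and *Igkc*, which are immunoglobulin genes of plasma cells, and *Cd5l*. In AMs only 15 cells had at least 10 *Arg1* UMIs, 11 at day 14 and 4 at day 28, and Scrublet called 20% of them doublets against 7.47% of AMs without *Arg1*. The genes most like *Arg1* over the 79 sums were *Slc7a8* (r = 0.82), *Rnf128* (0.74) and *Mdfic* (0.68), each highest in ILC2s.

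*Mrc1* encodes CD206, the mannose receptor, which takes up glycoproteins with mannose at their ends. In AMs it was nearly level, at 957 CPM in the sham library and 810.4, 707, 937 and 1096 CPM at days 3, 7, 14 and 28. IMs had 576 CPM in the sham library and 108, 239, 347 and 319 CPM at days 3, 7, 14 and 28, with their lowest value at day 3. Lymphoid cells, at 40 CPM in the sham library and 5.59, 38.4, 47 and 47.4 CPM at days 3, 7, 14 and 28, were below IMs in every library. Type 2 conventional dendritic cells (cDC2s) had 247 CPM in the sham library and 39.3, 93.1, 237 and 171 CPM at days 3, 7, 14 and 28. After thinning, 71.1% to 85.9% of AMs had an *Mrc1* UMI, and 8.84% (day 3) to 53.0% (sham) of IMs. Its RNA was spread over cells, since at least 58.1% of AMs had 10 or more *Mrc1* UMIs. The genes most like *Mrc1* were *Hebp1* (r = 0.86), *Olr1* (0.86) and *Atp6v0d2* (0.85), and the last of these is itself a marker of the AM gate.

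*Mgl2* encodes CD301b and *Clec10a* CD301a, neighboring C-type lectins that bind galactose and N-acetylgalactosamine. *Mgl2* was highest in cDC2s, at 1539.7 CPM in the sham library and 137, 574, 998 and 705 CPM at days 3, 7, 14 and 28. In IMs it was 809 CPM in the sham library and 96.3, 123, 25.9 and 8.9 CPM at days 3, 7, 14 and 28, and in AMs at most 9.11 CPM, in a library with 51.6 CPM in lymphoid cells. Lymphoid cells of the other libraries had 0.936 to 9.7 CPM. The few ILC2s had 57.6 to 301 CPM of *Mgl2*, beside 36.3 to 669.6 CPM of the dendritic cell chemokine *Ccl17*, and the part of other cells in this was not tested. *Clec10a* had another order. It was highest in plasmacytoid dendritic cells (pDCs), at 299, 535, 327 and 155 CPM in the sham, day 3, day 7 and day 14 libraries, followed by cDC2s at 243 CPM in the sham library and 212, 235, 263 and 136 CPM at days 3, 7, 14 and 28. At day 14 the order was turned around, with cDC2s above pDCs. At day 28 only 5 pDCs were present. pDCs held 48.1% of *Clec10a* at day 3, when there were 182 of them. In IMs *Clec10a* went from 127 CPM (95% interval 106 to 151) in the sham library to 37.5, 23.6, 4.04 and 3.48 CPM. Lymphoid cells had 25.3 CPM at day 7, of which 50% lay in 14 of 1237 cells, and 3.54 CPM at day 14, where 1 cell held 26 of the 31 UMIs. The share of thinned cells with a *Clec10a* UMI was 3.104% in IMs and 2.183% in lymphoid cells at day 7, with overlapping intervals, and 0.833% and 0.129% at day 14. In both lectins AMs were at or near background.

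Within cDC2s the pair also differed. cDC2s with a UMI of *Ccl17*, a chemokine that IL-4 induces in dendritic cells, had 2249 CPM in the sham library and 339, 679.7, 1240.1 and 826 CPM at days 3, 7, 14 and 28 of *Mgl2*, and those without had 932 CPM in the sham library and 11.9, 209.6, 492 and 298 CPM at days 3, 7, 14 and 28. *Mgl2* was thus higher in *Ccl17*-positive cells in all 5 libraries, from 30, 21, 458, 60 and 38 cells. *Clec10a* was higher in them in only the libraries of days 3 and 28. Some *Mgl2* also lay in cells gated as epithelial or T cells. At day 7 epithelial cells had 238 CPM, of which 99.5% was in 114 cells with at least 1000 CPM of *H2-Ab1*, a gene of MHC class II. In the 56 epithelial cells with at least 10 *Mgl2* UMIs, *Ccl17* stood at 4118 CPM and *H2-Ab1* at 11076 CPM, against 46.3 and 614 CPM in epithelial cells without *Mgl2*. Of the epithelial gate genes, *Epcam* (707 against 457 CPM) and *Cdh1* (438 against 397 CPM) were higher in the 56 cells. *Krt8* (79.7 against 2140 CPM) and *Sftpb* (221 against 884 CPM) were lower. *Cd74*, a further gene of MHC class II presentation, stood at 22719 CPM in the 56 cells and 1673 CPM in epithelial cells without *Mgl2*. Over all libraries, 74 cells of the epithelial gate fell in the cDC2 class by Leiden cluster. Whether the 56 cells are among them, and are dendritic cells, was not tested. Scrublet called 0% of the 56 cells doublets, against 4.98% of epithelial cells without *Mgl2*. Of the 18 T cells of day 7 with at least 10 *Mgl2* UMIs, 33.3% were called doublets, against 5.83% of T cells without. The genes most like *Mgl2* were *Asgr2* (r = 0.78), *Cd209a* (0.77) and *Dcstamp* (0.77), and those most like *Clec10a* were *Cd209a* (0.82), *Cd209d* (0.80) and *Ppfia4* (0.77), with *Cd209a* being a marker of the cDC2 gate.

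To ask how the macrophage classes differ in these genes, UMIs summed per class and library were compared within libraries by edgeR, with the library as a block and Benjamini-Hochberg adjustment over all genes tested. These tests treat the 5 libraries as replicates of a difference between classes, whatever the time point. AMs against IMs gave 19.2% of 13860 genes higher and 18.7% lower. Of the 7 members tested, 2 were higher in AMs. *Chil3* differed by 4.58 ± 0.35 (SE, adjusted p = 0.000123) and *Mrc1* by 1.56 ± 0.30 (SE, adjusted p = 0.00517) on the log2 scale, each higher in 5 of 5 libraries. The other side held 4 members: *Retnla* at -6.00 ± 0.97 (SE, adjusted p = 0.00273), *Arg1* at -4.19 ± 0.75 (SE, adjusted p = 0.00413), *Mgl2* at -5.68 ± 0.81 (SE, adjusted p = 0.0015) and *Clec10a* at -4.32 ± 0.70 (SE, adjusted p = 0.00268). For *Chil1* the difference was -0.18 ± 0.27 (SE, adjusted p = 0.644). The median over the 7 genes was -4.19, and over all genes -0.01. All 6 calls also passed with DESeq2, with clusters in place of gates, without doublets, without the library block and without any 1 library.

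**Figure D3:**
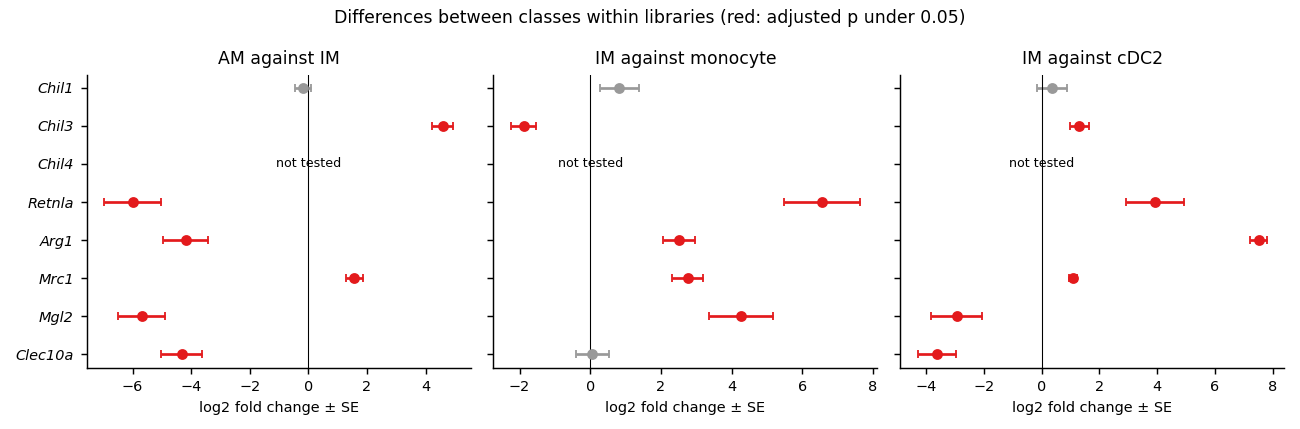
Log2 differences (points) with SE (bars) of 7 of the 8 genes (*Chil4* could not be tested) between AMs and IMs, IMs and classical monocytes, and IMs and cDC2s, from edgeR on UMIs summed per class and library; red points have an adjusted p under 0.05. *Retnla* and *Arg1* are higher in IMs than in each of the 3 other classes, whereas *Mgl2* and *Clec10a* are lower in IMs than in cDC2s.

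Against classical monocytes, with 4 libraries because only 5 monocytes were found at day 28, 6.45% of 10785 genes were higher in IMs and 7.41% lower. Of the members, 4 were higher: *Retnla* by 6.56 ± 1.08 (SE, adjusted p = 0.00669), *Mgl2* by 4.27 ± 0.92 (SE, adjusted p = 0.0194), *Mrc1* by 2.75 ± 0.44 (SE, adjusted p = 0.00602) and *Arg1* by 2.51 ± 0.45 (SE, adjusted p = 0.00932). *Chil3* was lower, at -1.89 ± 0.36 (SE, adjusted p = 0.0124). For *Clec10a* the difference was 0.05 ± 0.47 (SE, adjusted p = 0.963). Without the library of day 14, *Chil3* had an adjusted p of 0.0589, and without that of day 3, *Mgl2* had one of 0.0961. With Leiden clusters in place of gates the test had 1 residual degree of freedom, and of these 5 calls *Mrc1* alone passed. Without the library block *Retnla* and *Chil3* passed, and *Arg1*, *Mgl2* and *Mrc1* did not.

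Against cDC2s, 20.1% of 11046 genes were higher in IMs and 18.5% lower. IMs had more *Arg1*, by 7.51 ± 0.29 (SE, adjusted p = 1.82e-06), more *Retnla*, by 3.93 ± 1.01 (SE, adjusted p = 0.0137), more *Chil3*, by 1.31 ± 0.32 (SE, adjusted p = 0.0104), and more *Mrc1*, by 1.08 ± 0.13 (SE, adjusted p = 0.000261). They had less *Clec10a*, at -3.62 ± 0.67 (SE, adjusted p = 0.00255), and less *Mgl2*, at -2.94 ± 0.87 (SE, adjusted p = 0.0255). The *Mgl2* call was lost without the library of day 14 (-2.24, adjusted p = 0.0838) and without that of day 7 (-3.22, adjusted p = 0.0567). Without the library block *Arg1*, *Retnla* and *Clec10a* passed, and *Chil3*, *Mrc1* and *Mgl2* did not. The mean *Chil3* level of IMs was 522 CPM, beside a background of 500 CPM in lymphoid cells, with IMs higher in 3 of 5 libraries. *Mgl2* was lower in IMs than in cDC2s in 5 of 5 libraries, with 809 against 1539.7 CPM in the sham library and 8.9 against 705 CPM at day 28.

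Lymphoid cells gave the background in the same kind of test. AMs against lymphoid cells had 34.3% of 13475 genes higher and 35.6% lower, and IMs against lymphoid cells 29.6% of 12911 higher and 31.1% lower. AMs were higher in *Mrc1*, by 4.92 ± 0.47 (SE, adjusted p = 5.06e-05), and in *Chil3*, by 4.84 ± 0.36 (SE, adjusted p = 1.53e-05), and lower in *Mgl2*, at -2.19 ± 0.19 (SE, adjusted p = 3.18e-05), and *Retnla*, at -1.49 ± 0.58 (SE, adjusted p = 0.0478). The *Retnla* call was lost without the library of day 7 (adjusted p = 0.0536), of day 14 (0.0701) or of day 28 (0.143). *Arg1* in AMs was at 0.88 ± 0.50 (SE, adjusted p = 0.155) and passed only without the library of day 7 (1.27, adjusted p = 0.0463). *Clec10a* in AMs was at -1.58 ± 0.73 (SE, adjusted p = 0.0852), and passed without the library of day 28 (adjusted p = 0.0358) or sham (0.0454). IMs were higher in *Arg1*, by 5.09 ± 0.29 (SE, adjusted p = 6.45e-06), *Retnla*, by 4.55 ± 0.70 (SE, adjusted p = 0.000753), *Mgl2*, by 3.61 ± 0.69 (SE, adjusted p = 0.00225), and *Mrc1*, by 3.36 ± 0.21 (SE, adjusted p = 8.94e-06). *Clec10a* was at 2.34 ± 0.92 (SE, adjusted p = 0.0555), and passed without the library of day 7 (3.29, adjusted p = 0.0216), in which lymphoid cells had slightly more of it than IMs.

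**Figure D4:**
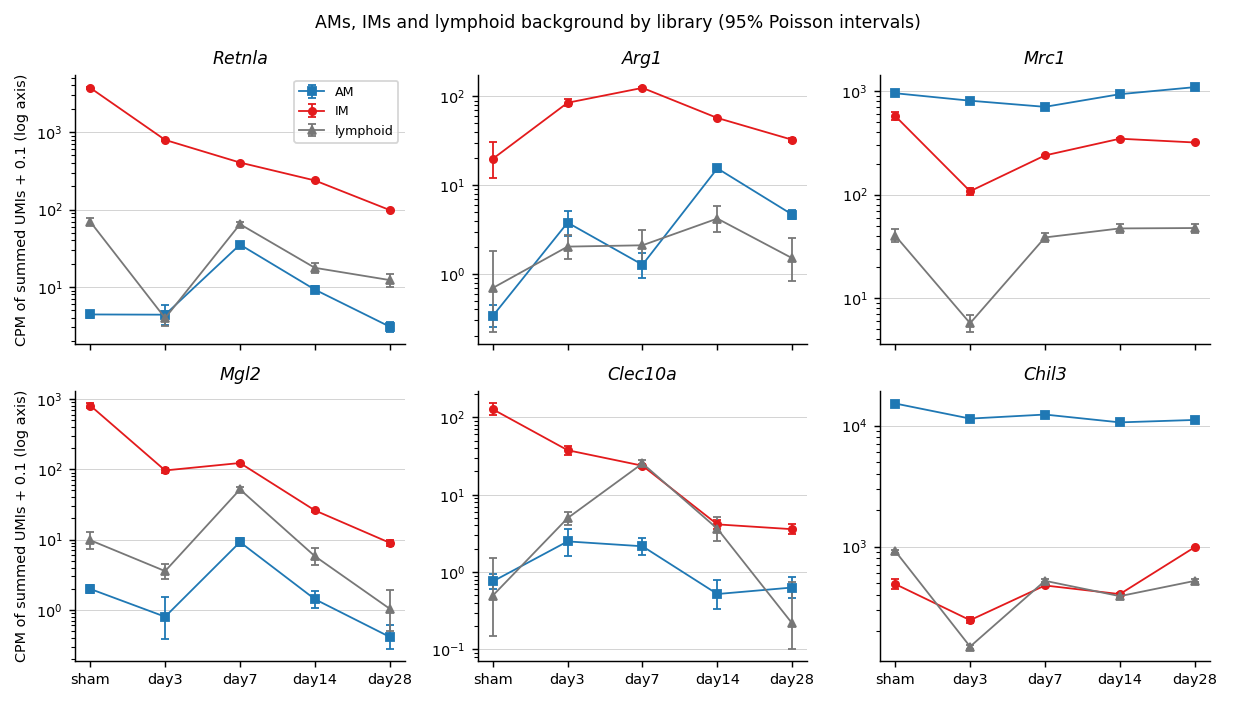
CPM of summed UMIs (plus 0.1, log axis) of 6 genes in AMs (blue squares), IMs (red circles) and lymphoid cells (gray triangles) of the 5 libraries; bars are 95% Poisson intervals. In IMs *Retnla* goes from 3721 CPM (sham) to 98.3 CPM (day 28), *Arg1* is highest at day 7, and *Mgl2* and *Clec10a* are under 9 CPM at day 28, while *Chil3* and *Mrc1* of AMs stay within 2-fold of sham.

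Over time the members of IMs moved apart. Genes with at least 50 CPM in either library were set against the sham library, and 2-fold was taken as the limit. At day 3, *Arg1* was higher in IMs, 4.31-fold (counting interval 2.76 to 7.11), among 9.6% of 3467 genes higher, and *Retnla*, *Mgl2*, *Mrc1* and *Clec10a* were lower, among 7.85% lower. At day 7 the same 1 and 4 members were past the limit, beside 2.36% of 3181 genes higher and 6.04% lower. *Arg1* was then 6.34-fold (counting interval 4.1 to 10.4) of sham. At day 14, *Arg1* was 2.9-fold (counting interval 1.87 to 4.75) (5.06% of 3244 genes higher), and *Retnla*, *Mgl2* and *Clec10a* were lower (9.22%). At day 28, *Arg1* was no longer above 50 CPM and *Chil3* was just past the limit, 2.02-fold (counting interval 1.85 to 2.21) (6.59% of 3261 genes higher), with the same 3 members lower (14.2%). In the sham library the *Chil3* level of IMs lay below the 919 CPM of lymphoid cells, and at day 28 it lay above the lymphoid level. On the log2 scale *Retnla* was at -2.23, -3.20, -3.97 and -5.24 at days 3, 7, 14 and 28, *Mgl2* at -3.07, -2.72, -4.96 and -6.51, and *Clec10a* at -1.76, -2.43, -4.98 and -5.19. *Mrc1* was at -2.42 at day 3 and -1.27 at day 7. These are differences from a single library with 70 IMs, which had 20 *Arg1* UMIs. The counting intervals do not cover the uneven spread of UMIs over cells. With IMs from Leiden clusters (161 in the sham library and 116 at day 3) the day 3 values of *Retnla* and *Clec10a* turned to 0.16 and 0.73, and the day 28 value of *Chil3* to -0.30, whereas *Retnla*, *Mgl2* and *Clec10a* remained past the limit at days 7, 14 and 28. In AMs only *Chil3* and *Mrc1* were at 50 CPM, and neither passed 2-fold at any time, beside 7.8%, 3.69%, 6.12% and 6.96% of all genes either way at days 3, 7, 14 and 28.

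IMs were not uniform in these genes. They were split by *H2-Ab1*, the MHC class II gene by which lung IMs are commonly divided, at 1000 CPM in the cell. In IMs at or above the limit *Retnla* was 6087 CPM in the sham library and 2259, 808, 808 and 1003 CPM at days 3, 7, 14 and 28, and below it 400.2 CPM in the sham library and 74.9, 86.2, 65.9 and 6.11 CPM at days 3, 7, 14 and 28. The MHC class II-high side thus held 78.6% (day 14) to 95.5% (sham) of the *Retnla* UMIs of IMs. *Mgl2* was 1024 CPM in the sham library and 149, 249.8, 102 and 86.1 CPM at days 3, 7, 14 and 28 on that side and 507 CPM in the sham library and 70.5, 23.1, 3.24 and 1.03 CPM at days 3, 7, 14 and 28 on the other. *Arg1* had the opposite order, at 16.9 CPM in the sham library and 34.9, 50.5, 27 and 23.1 CPM at days 3, 7, 14 and 28 on the MHC class II-high side and 23.7 CPM in the sham library and 109, 183, 66.2 and 33.4 CPM at days 3, 7, 14 and 28 on the other, and the intervals of the sides overlapped in the sham library only. The MHC class II-low side held 82.2% to 93.4% of IM *Arg1* from day 3 on. Cells on the high side numbered 37, 163, 1019, 489 and 258, and on the low side 33, 282, 1172, 1380 and 1955, so that the makeup of IMs shifted between libraries. The cutoff was chosen after the data had been seen, and the values are a description without a test. For *Retnla* the values depend on few cells, since 50% of its UMIs in IMs lay in 2 (day 3) to 11 (day 7) cells.

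**Figure D5:**
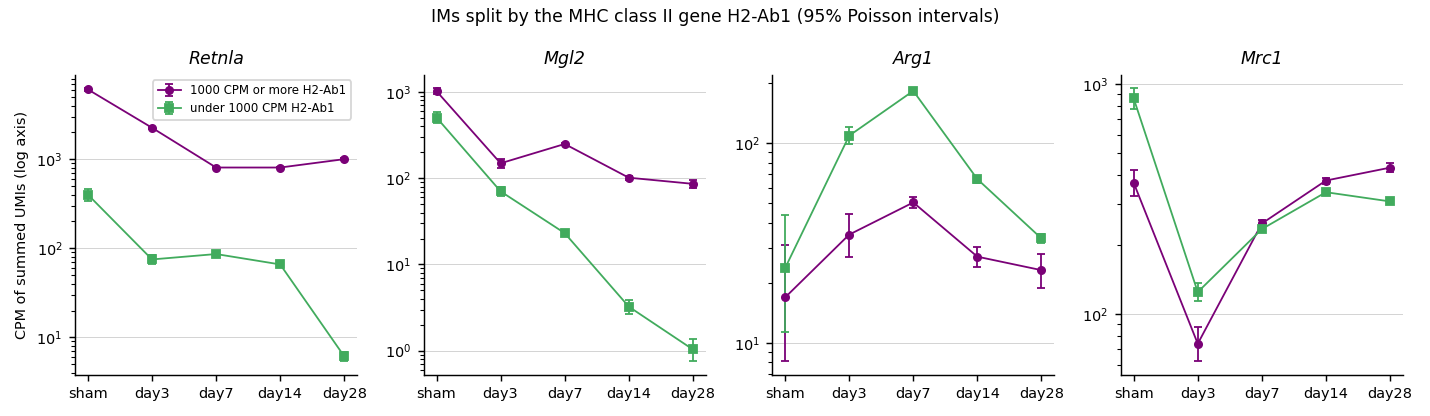
CPM of summed UMIs (log axis) of *Retnla*, *Mgl2*, *Arg1* and *Mrc1* in IMs with at least 1000 CPM of *H2-Ab1* (purple circles) and below it (green squares) in the 5 libraries; bars are 95% Poisson intervals. *Retnla* and *Mgl2* are higher on the purple side in every library, and *Arg1* is higher on the green side from day 3 to day 28. The *Retnla* values depend on few cells, which the bars do not cover.

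A score of the scar-associated genes *Gpnmb*, *Mmp12*, *Mfge8*, *Trem2*, *Spp1* and *Fabp5* also divided IMs. In scar-high IMs *Retnla* was 87.5, 27.7 and 3.48 CPM at days 7, 14 and 28, and in the remaining IMs 627, 646 and 968 CPM. *Mgl2* was 17, 3.36 and 0.994 CPM against 198, 70 and 81.5 CPM. The *Retnla* values again depend on few cells, with 50% of the UMIs of all IMs in 11, 5 and 3 cells at days 7, 14 and 28. *Arg1* was 72.7 CPM in scar-high IMs against 89.1 CPM at day 3, with overlapping intervals. It was higher in scar-high IMs at day 7, at 175 against 89.1 CPM, and at day 14, at 60.9 against 49.8 CPM. At day 28 the values were close to equal, at 32.6 against 31.1 CPM. Scar-high cells made up 3 of 70 IMs in the sham library and 92, 755, 1070 and 1859 at days 3, 7, 14 and 28. IMs with a *Lyve1* UMI were rich in *Clec10a* and *Mrc1*: at day 3 the 22 such cells had 365 against 18.6 CPM of *Clec10a* and 1215 against 43.9 CPM of *Mrc1*. By day 28 the *Mrc1* values were close to each other, at 335 against 319 CPM.

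The tdT reporter marks cells of the granulocyte and monocyte lineage, and allowed AMs to be divided by origin as far as it reports it. Among cells thinned to 2000 UMIs, 3 or more reporter UMIs were found in 0.417%, 0.483%, 0.524%, 10.97% and 8.82% of AMs of the sham, day 3, day 7, day 14 and day 28 libraries, and in 0.209% to 2.71% of lymphoid cells. Classical monocytes had them in 41.9% (sham) and 36.4% (day 3) of cells, but in only 1 of 137 at day 7. Reporter-positive and reporter-negative AMs could be compared in the libraries of sham, day 14 and day 28, in which 0.511% of 11551 genes were higher and 0.519% lower. *Arg1* was the only member past the threshold, at 3.06 ± 0.46 (SE, adjusted p = 0.0192). In reporter-positive AMs it was 0 CPM in the sham library (23 cells), 67.4 CPM at day 14 (152 cells) and 10.9 CPM at day 28 (236 cells), against 0.24, 3.99 and 3.09 CPM in reporter-negative AMs. The call rests on the library of day 14: without it the difference was 1.75 with an adjusted p of 0.532, and without the library block it did not pass either. At day 14, 50% of the *Arg1* UMIs of all AMs lay in 16 of 1399 cells. The 15 AMs with at least 10 *Arg1* UMIs had 1350 CPM of the reporter, against 195 CPM in AMs without *Arg1*. They also had more of the IM gate gene *C1qb* (138 against 20.6 CPM), and Scrublet called 20% of them doublets. *Chil3* was 6798 against 11465 CPM at day 14 and 10604 against 11118 CPM at day 28, a difference of -0.27 ± 0.12 (SE, adjusted p = 0.547) over the 3 libraries. *Mrc1* was at -0.12 ± 0.07 (SE, adjusted p = 0.675).

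The ligands that induce the members were found in few cells. *Il13* was seen in ILC2s, at 24.2, 86.7 and 21.6 CPM in the sham, day 7 and day 14 libraries, and *Il4* there at 18.2, 27.4 and 0 CPM. These values come from 32, 20 and 33 cells and rest on few UMIs. For scale, the 429.6 CPM of *Arg1* in sham ILC2s was 71 UMIs. T cells had 0.253 to 1.86 CPM of *Il4*. *Il33*, the alarmin that activates ILC2s, was a fibroblast gene, at 229.9, 738, 257, 116 and 196 CPM from sham to day 28. Its receptor gene *Il1rl1* is a marker of the ILC2 gate. *Il4ra*, the shared receptor chain, was 49.3, 114, 94.4, 63.9 and 43.6 CPM in IMs, with its highest value at day 3.

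Further genes of the pathway were taken from a list of ligands, receptors, signaling and transcription factors, other targets, arginine enzymes and paralogs, of which 48 are in the files. Between AMs and IMs, 43 could be tested, and 7 were higher in AMs and 19 lower, with a median of -0.53 (all genes, -0.01), beside 19.2% and 18.7% of all genes. The largest differences toward IMs were in *Folr2* (-8.10), the folate receptor of resident IMs, and in the chemokines *Ccl24* (-7.98) and *Ccl8* (-7.28). Those toward AMs were in *Slc7a2* (2.27), an arginine transporter, *Pparg* (2.20), the transcription factor of AM identity, and *Tgm2* (1.80). Of the 12 other targets, 2 were higher and 7 lower in AMs. Of 8 genes of classical activation, 0 were higher and 3 lower in AMs, namely *Cxcl10*, *Cd86* and *Nos2*. *Nos2* had low mean levels in both classes, at 0.172 CPM in AMs and 0.848 CPM in IMs. In the same test 6591 of all 13860 genes had an unadjusted p under 0.05.

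Between IMs and classical monocytes, 9 of 40 pathway genes were higher in IMs and 5 lower, beside 6.45% and 7.41% of all genes (median 0.27, against 0.05 over all genes). *Alox15* (8.44), a lipoxygenase that IL-4 induces, *Folr2* (5.85) and *Cd163* (5.65) were furthest up. *Nos2* (-2.76), which competes with arginase, *Ass1* (-1.38) and *Il13ra1* (-1.24) were furthest down. Mean levels of *Nos2* were low, at 1.06 CPM in IMs and 7.12 CPM in monocytes. The classical genes had 0 higher and 3 lower of 8, *Nos2*, *Cxcl9* (-2.14) and *Il1b* (-1.45). Between IMs and cDC2s, 17 of 40 were higher and 12 lower, beside 20.1% and 18.5% of all genes (median 0.10, against 0.00 over all genes), led by *Ccl24* (11.04), *Ccl8* (6.31) and *Alox15* (6.19) on the IM side and *Ccl17* (-3.99), *Ccl22* (-3.43) and *Il1rl1* (-3.34) on the cDC2 side. The *Ccl24* value sets a mean of 25.1 CPM in IMs against 0 CPM in cDC2s. Of the classical genes, 1 of 7 was higher in IMs and 3 lower, with *Il12b* (-3.46) the furthest. Against lymphoid cells, 23 of 43 were higher in IMs and 10 lower, beside 29.6% and 31.1% of all genes. In AMs 15 of 42 were higher and 17 lower, near the 34.3% and 35.6% of all genes. Between reporter-positive and reporter-negative AMs, *Csf1r* (0.56) was the only pathway gene of 32 that passed, and 2 classical genes of 6, *Cxcl9* (-4.89) and *Cxcl10* (-2.02), were lower. Mean levels of these 2 genes were low, at 0.222 against 7.59 CPM and 2.42 against 10.1 CPM.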

How the data were processed

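Droplet scRNA-seq libraries of lung cells, 1 per time point, were analyzed from the deposited UMI counts per gene and barcode, which the authors made with Cell Ranger 6.0.0 on mm10. No ambient RNA was removed here. Barcodes were filtered on genes (300 to 8000), UMIs (800 to 60000) and mitochondrial share (below 15%) (total UMIs per library 89769386 to 167506186). Classes came from mean marker scores, with cutoffs set after the scores had been seen. Doublets were kept, and their removal (Scrublet) was an alternative. Cells called doublets were those with the highest Scrublet scores of a library, at an assumed rate of 0.8% per 1000 barcodes. Their share in a library was thus fixed in advance. Levels are CPM of summed counts with exact Poisson intervals, and shares come from cells thinned to 2000 UMIs with exact Clopper-Pearson intervals; both cover counting error only. Classes with at least 20 cells in a library were compared by the quasi-likelihood test of edgeR 4.0.16 (R 4.3.3) with TMM and a library block, with Benjamini-Hochberg adjustment and a threshold of 0.05. The libraries are the replicates there, and p-values measure the spread between them. DESeq2 1.42.0, no block, no filter on low counts, Leiden clusters (scanpy 1.11.5), and leaving out each library were alternatives. Leaving out cells with at least 1% *Scgb1a1* UMIs was chosen after seeing the data. On simulated data (AMs against IMs, 12714 genes, 200 changed), 61% of 2-fold and 89% of 4-fold changes were recovered, and 7.407% of calls were false. The members, gene lists and tests were chosen with earlier results of these data known. Named genes were the 8 members, the 3 pathway genes furthest in each direction among those that passed, and the 3 genes most like each member, of which 1 is not reported here. Companion genes of high cells, and the splits of cells, were chosen after their values were seen. *Ear11*, a further gene of the list, was not analysed here.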

Additional observations from a re-analysis of the deposited data

How the results depend on the processing

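The number of members called kept within 1.5 times under most alternatives. Without thinning, 54 rather than 32 of 80 shares of cells were above lymphoid cells. Without the library block, 1 rather than 4 members was higher in IMs than in monocytes, 2 rather than 4 were higher and 1 rather than 2 lower in IMs than in cDC2s, 1 rather than 2 was lower in AMs than in lymphoid cells, and 0 rather than 1 was higher in reporter-positive AMs, where edgeR then called 0 genes (268 at an unadjusted p under 0.05). With Leiden clusters, 1 member was higher and 0 were lower in IMs than in monocytes, and the log2 differences of IMs from sham turned to 0.16 for *Retnla* and 0.73 for *Clec10a* at day 3 and to -0.30 for *Chil3* at day 28. With *Scgb1a1* cells left out, 1 member was lower in AMs than in lymphoid cells. Leaving out 1 library gave 0 to 1 members lower in IMs than in monocytes (0 without day 14), 1 to 2 lower in IMs than in cDC2s (1 without day 7 or day 14), 1 to 3 lower in AMs than in lymphoid cells (1 without day 7 or day 14, 3 without sham) and 0 to 1 higher in reporter-positive AMs (0 without day 14). The cause of these changes was not tested.

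Over all genes, calls between AMs and IMs went from 5247 to 3247 without the block, and between IMs and cDC2s from 4268 to 2697. Between IMs and monocytes they went from 1495 to 415 without the block, 358 with Leiden clusters, and 902, 677 and 849 without day 3, 7 and 14. Between reporter-positive and reporter-negative AMs they went from 119 to 381 without the filter, 428 without doublets, 232 without day 14 and 434 without sham. The comparisons of classes were paired by library. Between time points, no paired analysis was possible because each is a single library. Limits on the values are the 70 IMs of the sham library, the few ILC2s, the lowest barcode of 4624 UMIs at day 7 and levels carried by single cells.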
